A study of Mus musculus with 1012 samples.

Results

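The genes described here are the WNT ligands, their Frizzled (FZD) receptors and the secreted SFRP and DKK proteins. They were taken by name: 37 mouse protein-coding genes bear a Wnt, Fzd, Sfrp or Dkk symbol with a number, and 32 of them were among the 30452 features of the count table, of which 17517 are protein-coding. These 32 comprised 15 ligands, 10 receptors, 3 SFRP genes and 4 DKK genes. Wnt3a, Wnt8a, Wnt8b, Wnt9b and Sfrp5 were not analysed here.

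WNT proteins are lipid-modified signals that a cell secretes and that act at short range on Frizzled receptors, with LRP5 or LRP6 as co-receptor when the signal runs through β-catenin. SFRP proteins carry a Frizzled-like domain and bind WNT proteins outside the cell, whereas DKK1, DKK2 and DKK4 bind the LRP co-receptors. DKK3 is a divergent member that does not share this action. In adipose precursors, canonical WNT signals such as WNT10B are known to hold back adipogenesis, and WNT5A is a ligand that mostly signals without β-catenin.

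The series holds 1012 libraries, each made from 1 cell: 296 Live-seq libraries, for which cytoplasm was drawn out of a living cell, 554 scRNA-seq libraries of whole lysed cells, and 162 libraries of a sampling experiment. RAW cells were mouse RAW264.7 macrophage-like cells, mostly of the RAW-G9 subline, a clone that carries mCherry driven by the Tnf promoter and a fusion of EGFP with Rela (wild-type RAW264.7 in batch 5Reseq of Live-seq). They were not treated by their labels, and mock-treated with PBS by the study's text (RAW_Mock, with 1, 8, 20, 63 and 12 cells in Live-seq batches 5Reseq, 6, 7, 8_8 and 9_4 and 95, 16 and 46 in scRNA-seq batches scRNA, 8_8 and 9_1) or given lipopolysaccharide (LPS) (RAW_LPS, 50 Live-seq and 149 scRNA-seq cells). The study's methods give 4 to 5 h of LPS for the Live-seq cells and state no time for the scRNA-seq cells. IBA cells (44 in Live-seq and 93, 15 and 45 in the 3 scRNA-seq batches) are an immortalized line of brown preadipocytes grown from interscapular fat of young male C57BL6/J mice, and thus a single line. ASPCs are primary adipose stem and progenitor cells from subcutaneous fat of female C57BL/6J mice, some of which bore lentiviral GFP barcodes in Live-seq. They were taken before induction (ASPC_Pre, 61 and 60 cells) or after 2 days with dexamethasone, IBMX, insulin and rosiglitazone (ASPC_Post, 37 and 35 cells). In the sampling experiment (batch 8_1), 49 and 43 IBA cells were lysed 1 h and 4 h after cytoplasm had been withdrawn, and 70 cells that had not been sampled stood for 0 h.

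The deposited values are read counts per gene without molecular identifiers, and strand was not used. Totals per cell ranged from 64547 to 1603790 in Live-seq, from 41030 to 2671609 in scRNA-seq and from 38451 to 1077131 in the sampling experiment. A median of 4035 genes had a count in a Live-seq cell and 8531 in a scRNA-seq cell. Counts were summed over the cells of a state in a batch wherever at least 3 cells were present, which gave 12 scRNA-seq sums (batches scRNA, 8_8 and 9_1) and 15 Live-seq sums (batches 5Reseq, 6, 7, 8_8 and 9_4). Each sum was a replicate, and its levels are given in CPM, the count of a gene scaled to the same total of kept genes in every sum. The labels do not say that batches are separate cultures or animals, and the study's text calls them experimental replicates, so the p-values measure the spread between batches, which may be technical. In sums, fewer cells that transcribe a gene and less RNA per cell cannot be told apart. Intervals are exact and at 95%, and cover counting error only. Exons of other genes overlap 17.8% of the exonic bases of Fzd5, 16.1% of Sfrp2, 8.8% of Wnt11, 4.6% of Wnt5a and 3.2% of Fzd6, and reads there could not be assigned without strand.

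The labels were checked against marker lists. The 10 mesenchymal genes summed to between 3274 and 20183 CPM in the IBA and ASPC sums of both techniques and to at most 5.63 CPM in RAW sums. The 10 macrophage genes summed to between 2935 and 34873 CPM in RAW sums. In 1 scRNA-seq cell labelled IBA, of batch 9_1, macrophage genes summed to 31780 CPM and mesenchymal genes to 0. Without that cell Sfrp2 was at 1335 rather than 1311 CPM in its sum, and the number of called members was the same in every comparison. Contractile genes (Acta2, Cnn1, Tagln and Myh11) ranged widely between the ASPC sums, at 4334 and 7021 CPM in ASPC_Pre and 319.9 CPM in ASPC_Post in scRNA-seq, and at 7382 and 28092 CPM in ASPC_Pre and 539 CPM in ASPC_Post in Live-seq. Their part in the results was not tested.

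Of the 32 genes, 16 reached 10 CPM in at least 1 sum of 10 or more cells: the ligands Wnt2, Wnt5a, Wnt9a and Wnt16, the receptors Fzd1 to Fzd7, all 3 SFRP genes, and Dkk2 and Dkk3. Wnt9a reached that level only in a Live-seq sum of IBA cells (18.6 CPM), where all 180 counts came from 1 cell. Wnt4, Wnt10b, Wnt11 and Fzd8 stayed below that level and were called in a comparison. The other 12 (Wnt1, Wnt2b, Wnt3, Wnt5b, Wnt6, Wnt7a, Wnt7b, Wnt10a, Fzd9, Fzd10, Dkk1 and Dkk4) had between 0 and 519 counts over all 1012 cells, with no counts for Wnt7b and Dkk1. A whole cell had counts for a median of 10 of the 32 genes in ASPC_Post, 8 in ASPC_Pre and 6 in IBA, against 1 in RAW cells of either treatment. In Live-seq these medians were 4, 3, 2 and 0. With cells thinned to 50000 counts they were 7, 6, 4 and 1 in scRNA-seq and 4, 2, 1 and 0 in Live-seq, and 1 whole RAW cell and 3 Live-seq RAW cells were too shallow to be thinned.

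**Figure D1:**
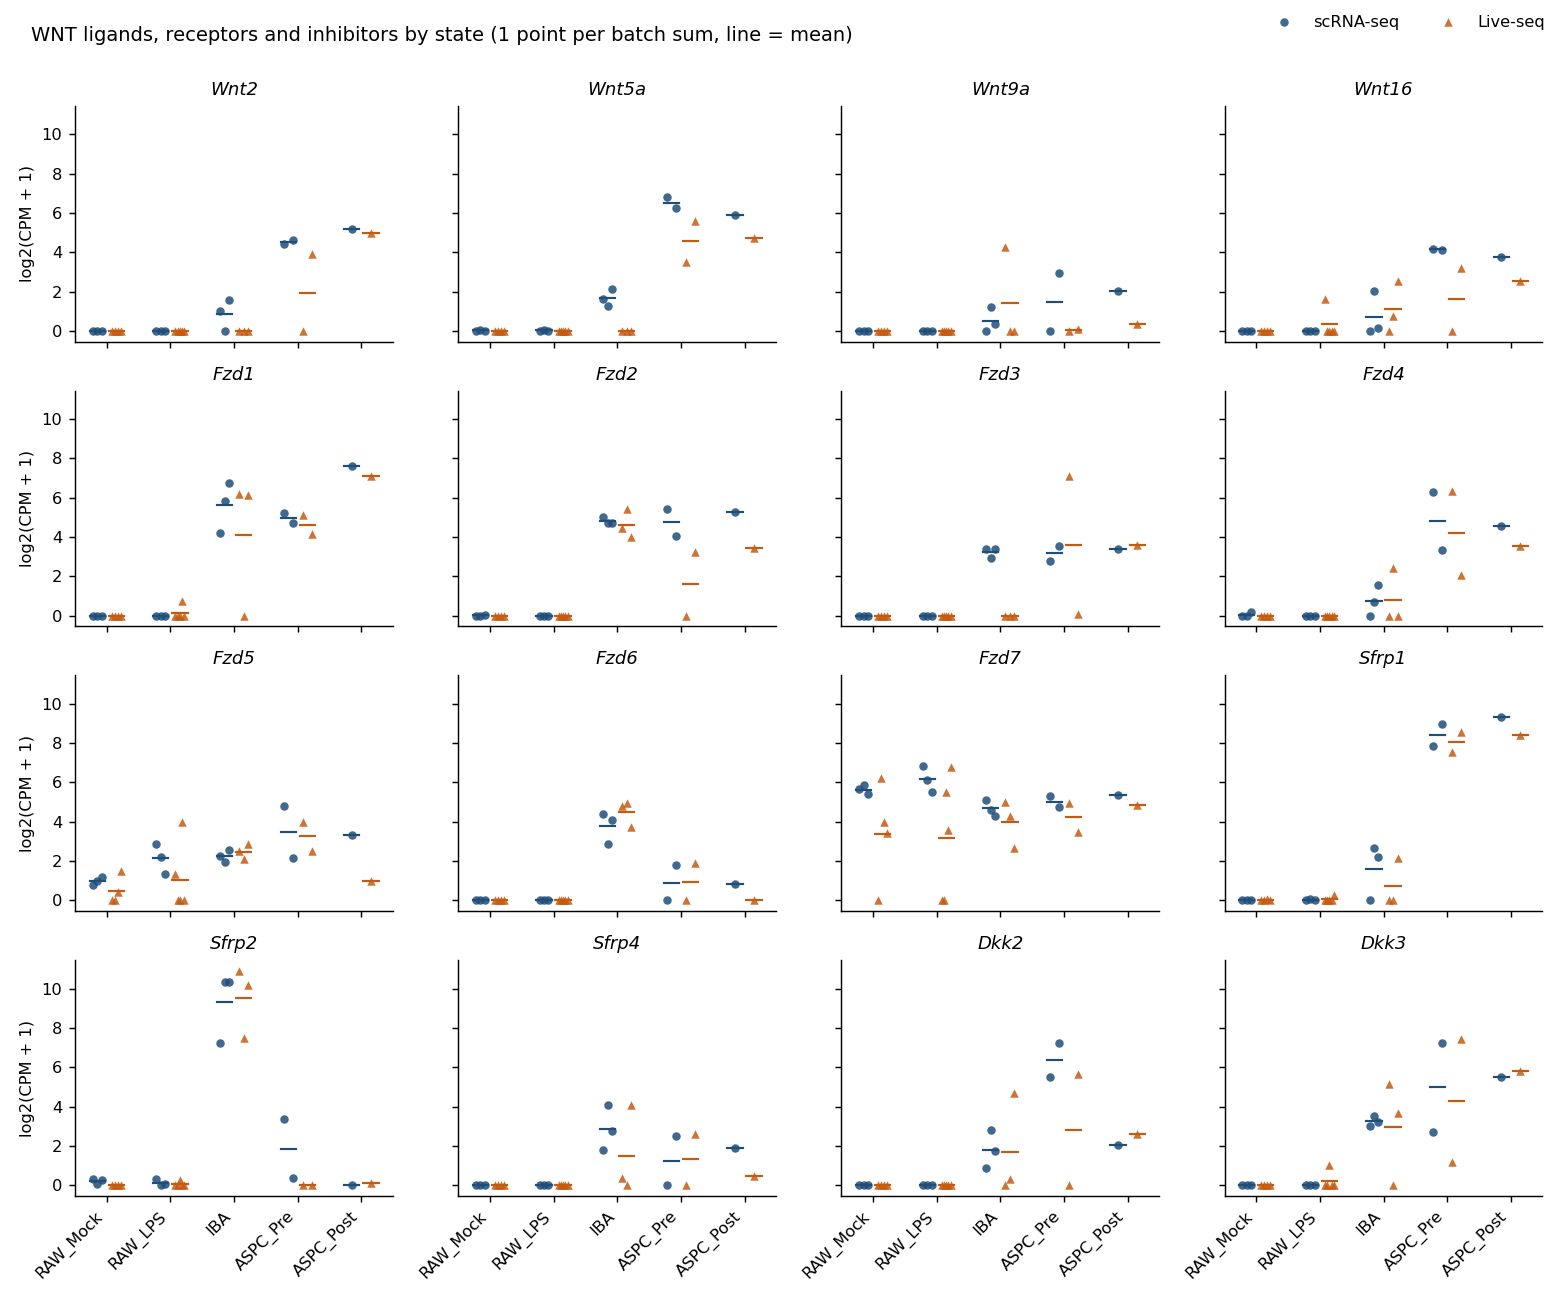
Level of the 16 genes that reached 10 CPM, as log2(CPM + 1) of each batch sum, by state and technique; a point is a sum of at least 3 cells and a line the mean of the plotted values. Sfrp2 is high in IBA sums and Sfrp1 and Wnt5a in ASPC sums, and Fzd7 is the highest of these genes in every RAW sum of scRNA-seq, while it is at 0 in 3 RAW sums of Live-seq.

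The first comparison asked which of these genes set the mesenchymal cells (IBA and ASPC_Pre) apart from RAW cells. In scRNA-seq most of the genes tested were higher in mesenchymal cells and 12 of them had no count in any of the 306 RAW cells, whereas Fzd7 was higher in RAW cells. edgeR's quasi-likelihood test was run on the sums with batch as a block, and a gene was called at a Benjamini-Hochberg adjusted p below 0.05 and a difference of more than 1 on the log2 scale. The filter on low counts passed 21 of the 32 genes. Of these, 19 were called as higher in mesenchymal cells and 1 as lower, and Wnt10a was not called. Among all 13404 genes tested, 41.5% were called (27.4% as higher in mesenchymal cells and 14.1% as lower). Most of the 21 genes passed the filter through the mesenchymal cells in which they are high, so that they had to differ and their share is no support for a difference of the family.

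Fzd7 (ENSMUSG00000041075, chromosome 1 of GRCm38, 59482424 to 59486955) encodes a receptor used in several tissue stem cells and was the main member in RAW cells. In the order of batches scRNA, 8_8 and 9_1 it was at 41.5, 49.2 and 57.1 CPM in RAW_Mock sums and at 45.1, 113 and 68.6 CPM in RAW_LPS sums. IBA sums were at 19.0, 33.1 and 23.6 CPM and ASPC_Pre sums at 39.1 (8_8) and 25.5 CPM (9_1). Every RAW sum was thus above every IBA and ASPC_Pre sum. The log2 fold change of mesenchymal cells against RAW cells was −1.03 (standard error 0.21, adjusted p = 0.00318 by edgeR). With the pooled counts Fzd7 was 2.29-fold higher in RAW cells (95% interval 2.18 to 2.40). It was counted in 136 RAW_Mock cells (86.6%, 80.3 to 91.5%) and 124 RAW_LPS cells (83.2%, 76.2 to 88.8%). Without the batch block the change was −0.95 and fell short of the fold threshold.

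Fzd5, a receptor known from macrophage responses to WNT5A, was the other receptor with more than stray counts in RAW cells, at 0.693 to 6.30 CPM per sum. IBA sums were at 2.92 to 4.99 CPM and ASPC_Pre sums at 26.7 (8_8) and 3.53 CPM (9_1), so that the groups overlapped. It was called as higher in mesenchymal cells (log2 fold change 1.92, standard error 0.58, adjusted p = 0.0208). The call was lost without batch scRNA (adjusted p = 0.109) and without batch 8_8 (adjusted p = 0.114).

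The remaining receptors had few or no counts in RAW cells. Fzd1, Fzd3, Fzd6 and Fzd8 had 0 counts in the 306 RAW cells, Fzd2 had 1 and Fzd4 had 4, all from 1 cell. Against a floor of 3 counts over the RAW cells, the pooled level was at least 2673-fold higher in mesenchymal cells for Fzd1, at least 381-fold for Fzd6, at least 366-fold for Fzd3 and at least 111.3-fold for Fzd8. The adjusted p-values were 0.000103, 0.00544, 0.00057 and 0.00526, and those of Fzd2 and Fzd4 were 1.18e-05 and 0.000596. Without batch 9_1, Fzd6 was no longer called (adjusted p = 1).

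Among ligands, Wnt2, Wnt9a, Wnt10b, Wnt11 and Wnt16 also had 0 counts in RAW cells of scRNA-seq, and Wnt4 and Wnt5a had 2 each. The pooled level of Wnt5a was 1581-fold higher in mesenchymal cells (counting interval 437 to 13059, adjusted p = 3.02e-06). Wnt2 and Wnt16 were at least 314-fold and at least 248-fold higher (adjusted p = 0.00388 and 0.00537). Wnt2b and Wnt6, which did not pass the filter, had more counts in RAW cells (234 against 59 and 351 against 76). Wnt4, Wnt9a, Wnt10b and Wnt11, all under 10 CPM in scRNA-seq sums, were called with adjusted p-values of 0.000695, 0.00789, 0.0192 and 0.00415. The calls of Wnt9a and Wnt10b were lost without batch 9_1 (adjusted p = 1 for both) and by DESeq2 (adjusted p = 0.0596 and 0.0641), and that of Wnt10b also with the edgeR 4 fit, the newer form of the quasi-likelihood fit (0.157).

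Of the SFRP and DKK genes, Dkk2, Dkk3 and Sfrp4 had 0 counts in RAW cells and were at least 1792-fold, at least 1892-fold and at least 354-fold higher in mesenchymal cells (adjusted p = 9.94e-05, 0.000904 and 0.00254). The call of Sfrp4 was lost without batch 9_1 (adjusted p = 1). Sfrp1 had 1 count in RAW cells against 13540 in mesenchymal cells (adjusted p = 1.93e-05). Sfrp2 had 11 counts in 10 of the 306 RAW cells against 84298 counts in mesenchymal cells (adjusted p = 0.000182). At least 1 Sfrp2 count was in 5.10% of RAW_Mock cells (2.23 to 9.79%); whether such counts are background was not tested.

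In Live-seq, 11 of the 32 genes passed the filter, and Dkk3 and Sfrp1 were called as higher in mesenchymal cells, where 8.01% of 11668 genes tested were called (5.49% higher, 2.53% lower). At an unadjusted p below 0.05 there were 6 members and 21.9% of all genes tested. Sfrp2 had 28571 counts in mesenchymal cells against 2 in RAW cells, Wnt5a 803 against 0 and Wnt2 220 against 0. They were not called, at standard errors of 11558, 12222 and 3484780 on the log2 scale. Sfrp2 had 0 counts in ASPC_Pre, and Wnt5a and Wnt2 had 0 in IBA cells. The test could thus not judge these genes. The log2 fold change of Dkk3 was 8.95 (standard error 1.71, adjusted p = 0.0244), and 3137 counts in mesenchymal cells stood against 10 from 1 RAW cell. That of Sfrp1 was 7.45 (standard error 1.53, adjusted p = 0.0305), with 6855 counts against 2. Fzd1 came next at 9.70 (standard error 2.45, adjusted p = 0.0555) and was called under 5 of 14 alternatives, DESeq2 among them (adjusted p = 0.000438 to 0.412 over the 14). Neither call held without batch 8_8 (adjusted p = 0.269 for Dkk3 and 0.284 for Sfrp1) or without batch 9_4 (0.341 and 1), and that of Dkk3 was also lost without batch 7 (0.133). That of Sfrp1 was lost by DESeq2 (0.191) and with at least 10 cells per sum (0.0582) as well. Fzd7 again had more counts in RAW cells, 1876 against 705, but its sums overlapped (0 to 108.1 CPM in RAW, 5.35 to 31.0 CPM in IBA and ASPC_Pre) and the log2 fold change of −0.68 (standard error 1.24) was not called (adjusted p = 0.862).

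The second comparison set IBA cells, a brown preadipocyte line, against primary ASPCs of subcutaneous fat before induction. Fat depot, sex of the mice and immortalization all differ between the 2 cell types and cannot be told apart. Among the SFRP genes, Sfrp2 was called as higher in IBA cells and Sfrp1 as higher in ASPCs. ASPCs also had more Wnt5a, Dkk2 and Fzd4, and IBA cells more Wnt10b. In scRNA-seq these 6 of the 21 genes tested were called, of which 2 were higher in IBA cells and 4 were lower. Over all genes 11.4% were called (3.77% as higher in IBA and 7.61% as lower). A gene could pass the filter through the state in which it was high, so these shares are a description. In the same comparison 2 of the 3 contractile genes tested were called as lower in IBA cells (median log2 fold change −4.60). So were 3 of the 10 mesenchymal marker genes (median −1.32). The part of these differences in the results was not tested.

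Sfrp2 (ENSMUSG00000027996, chromosome 3, 83766321 to 83774316) encodes a secreted WNT antagonist. It was at 1312, 149 and 1311 CPM in the scRNA-seq IBA sums of batches scRNA, 8_8 and 9_1, and at 9.24 and 0.288 CPM in the ASPC_Pre sums of batches 8_8 and 9_1. The lowest IBA sum was above both ASPC_Pre sums, and the sum of batch 8_8 was the low one among IBA sums. In Live-seq, IBA sums were at 1918 (batch 7), 177 (8_8) and 1172 CPM (9_4), and no Sfrp2 count was seen in 61 ASPC_Pre cells. Batch 8_8 was again the lowest. The log2 fold change in scRNA-seq was 7.69 (standard error 1.83, adjusted p = 0.0311). Pooled counts were 777-fold higher in IBA cells (581 to 1066). The adjusted p was 0.0822 without batch scRNA and 0.0788 without batch 9_1, where the log2 fold change was 3.93.

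Sfrp1 (ENSMUSG00000031548, chromosome 8, 23411502 to 23449632) encodes a related antagonist. It was at 231 CPM (8_8) and 506 CPM (9_1) in the ASPC_Pre sums of scRNA-seq and at 3.60, 0 and 5.24 CPM in the IBA sums of batches scRNA, 8_8 and 9_1. In Live-seq, ASPC_Pre sums were at 187.8 (8_8) and 382 CPM (9_4) and IBA sums at 0, 0 and 3.44 CPM. The groups were far apart in both techniques. The log2 fold change of IBA against ASPC_Pre was −7.74 in scRNA-seq (standard error 0.81, adjusted p = 0.00381), and pooled counts were 114-fold higher in ASPC_Pre (100.97 to 128.3). Without batch 9_1 the adjusted p was 0.0512 (log2 fold change −13.53), and by DESeq2 it was 0.0829 (−6.82).

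Few single cells had counts of both genes, which restates the difference between the cell types. Whether the 2 genes avoid each other within cells of a type was not tested. Of the IBA cells of scRNA-seq, 132 had counts of Sfrp2 alone, 9 of both, 0 of Sfrp1 alone and 12 of neither. Of 60 ASPC_Pre cells, 52 had Sfrp1 alone, 3 both, 1 Sfrp2 alone and 4 neither. In Live-seq, 30 of 44 IBA cells had Sfrp2 alone and 2 had both, and 45 of 61 ASPC_Pre cells had Sfrp1 alone and 16 had neither. Sfrp2 varied widely between IBA cells of a batch, from 0 to 16231 CPM around a median of 504 CPM in scRNA-seq batch 9_1. Sfrp1 ranged from 2.83 to 4534 CPM around a median of 354 CPM over the 44 ASPC_Pre cells of that batch.

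**Figure D2:**
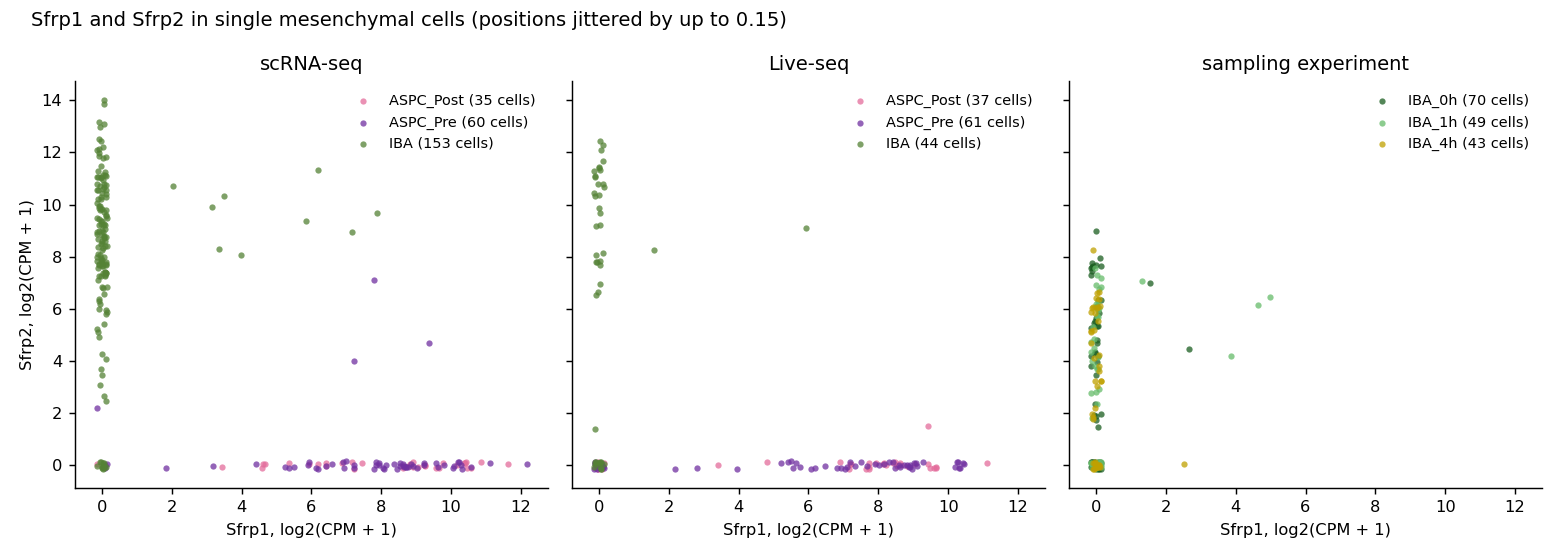
Sfrp1 and Sfrp2 in single cells, in CPM of each cell, for the IBA and ASPC states of both techniques. IBA cells lie along the Sfrp2 axis and ASPCs along the Sfrp1 axis, with 9 whole IBA cells and 3 whole ASPC_Pre cells showing both.

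Wnt5a (ENSMUSG00000021994, chromosome 14, 28504750 to 28527448) was the ligand with the strongest call. It was at 111.1 (8_8) and 73.9 CPM (9_1) in ASPC_Pre sums of scRNA-seq and at 3.32, 2.08 and 1.37 CPM in IBA sums. Counts came from 51 of 60 ASPC_Pre cells (85.0%, 73.4 to 92.9%) and 14 IBA cells (9.15%, 5.09 to 14.9%), or from 75.0% and 4.58% of cells after each was thinned to 50000 counts. The log2 fold change was −5.85 (standard error 0.70, adjusted p = 0.00314), and the call was lost without batch 9_1 (log2 fold change −5.95, adjusted p = 0.121), a fit in which ASPC_Pre was a single sum assumed to vary like the other groups. In Live-seq it was at 10.47 (8_8) and 47.8 CPM (9_4) in ASPC_Pre, and 0 counts in 44 IBA cells put ASPC_Pre at least 294-fold higher against a floor of 3 counts over the group.

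Wnt2 and Wnt16 were also at higher levels in ASPC_Pre sums but were not called. Wnt2, a ligand of the β-catenin pathway, was at 20.2 and 23.3 CPM against 0 to 2.02 CPM in IBA sums, a 22.3-fold difference in pooled counts (17.4 to 29.0) with an adjusted p of 0.0842. It was called under 4 of 12 alternatives: the edgeR 4 fit, no filter on low counts, thinned cells and without batch 8_8, where ASPC_Pre was again a single sum (adjusted p = 0.0141 to 0.46 over the 12). Wnt16 was at 16.8 and 16.4 CPM against 0 to 3.05 CPM (adjusted p = 0.147, and 0.0349 with the edgeR 4 fit, which called it). The sums did not overlap for either gene. Wnt10b, known as a brake on adipogenesis, showed the opposite order, with 3.54 to 8.14 CPM in IBA sums and 1 count in ASPC_Pre. It was called with 7.20 on the log2 scale (standard error 1.57, adjusted p = 0.0476) and lost the call without any 1 of the 3 batches (adjusted p = 0.0816 to 0.274), by DESeq2 (0.175) and without the filter on low counts (0.0532). Per kilobase of exon, the mean level of Wnt5a in ASPC_Pre was 11.8 CPM and that of Wnt2 was 9.63 CPM, against 1.59 CPM for Wnt10b in IBA.

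Among receptors, Fzd4 was called as lower in IBA cells. It was at 77.8 (8_8) and 9.08 CPM (9_1) in ASPC_Pre and at 0 to 1.99 CPM in IBA sums, or −6.27 on the log2 scale (standard error 1.35, adjusted p = 0.0316). The call was lost without batch scRNA, 8_8 or 9_1 (adjusted p = 0.102, 0.0652 and 0.0919), at log2 fold changes of −6.14, −4.36 and −12.03. Fzd6 showed the opposite order, with 6.39 to 20.0 CPM in IBA sums against 0 and 2.51 CPM in ASPC_Pre, but was not called (adjusted p = 0.338). In Live-seq, Fzd6 was counted in 7 of 44 IBA and 4 of 61 ASPC_Pre cells.

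Fzd1, Fzd2, Fzd3 and Fzd7 were present in both cell types and were not called. Their log2 fold changes in scRNA-seq lay between −0.45 and −0.18, with standard errors from 0.32 to 0.91 and adjusted p-values from 0.385 to 0.871. Fzd1 was at 108.3, 17.7 and 56.8 CPM in IBA sums and at 36.2 and 25.2 CPM in ASPC_Pre, so that the spread within IBA covered the ASPC_Pre values. Fzd2 was at 24.8, 31.1 and 25.1 CPM against 41.6 and 15.7 CPM. Fzd3 ranged from 5.84 to 10.8 CPM over the sums of both. A difference of more than 2-fold was not excluded by these standard errors for any of the 4 genes. In Live-seq the sums of Fzd1 and Fzd7 overlapped. Those of Fzd2 were all higher in IBA cells, by 3.39-fold in pooled counts (2.79 to 4.12), but Fzd2 was not called. Fzd3 did not pass the filter there, with 552 counts from 2 ASPC_Pre cells and 0 in the 44 IBA cells.

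Dkk2 (ENSMUSG00000028031, chromosome 3, 132085292 to 132180304) was called as lower in IBA cells, at 0.834 to 5.94 CPM against 43.8 (8_8) and 150.4 CPM (9_1) in ASPC_Pre. The log2 fold change was −5.39 (standard error 0.65, adjusted p = 0.0132). In ASPC_Pre of batch 9_1, 29 of 44 cells had Dkk2 counts and 1 cell gave 55.1% of them. The call was lost without batch 9_1 (adjusted p = 0.184) and by DESeq2 (0.135). Dkk3 was at 151.4 CPM in ASPC_Pre of batch 9_1 but at 5.59 CPM in that of batch 8_8, below the 7.09 CPM of the IBA sum of the same batch, and was not called (adjusted p = 0.322), but was with cells thinned to 50000 counts (0.0115) and without batch 8_8 (0.0357), where ASPC_Pre was the single sum of batch 9_1. Sfrp4 was at 2.50 to 15.8 CPM in IBA and at 0 and 4.64 CPM in ASPC_Pre (adjusted p = 0.305), and 1 cell gave 78.1% of the highest sum.

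In Live-seq the same comparison called 0 members by edgeR, where 0.0171% of 11668 genes (2 genes, 0.00857% in each direction) were called. The dispersion was 1.44 between Live-seq sums against 0.184 between scRNA-seq sums, and an absent call in Live-seq does not show equal levels. At an unadjusted p below 0.05 there were 4 members (Sfrp2, Sfrp1, Dkk3 and Wnt5a) and 4.89% of all genes, and DESeq2 and the edgeR 4 fit also called 0. The adjusted p of Sfrp2 was 0.147 and it ranged from 0.011 to 1 over the alternatives, being called without the filter on low counts, without the batch block and with cells thinned to 50000 counts. With 0 counts in ASPC_Pre, Sfrp2 was at least 8670.2-fold higher in IBA cells against a floor of 3 counts over the group, and pooled Sfrp1 was 278-fold higher in ASPC_Pre (190.8 to 421.8). The difference between the techniques was tested as an interaction. It called 0 of 11 members (0% of 11661 genes) by edgeR, with Sfrp2 alone at an unadjusted p below 0.05 (log2 difference 7.74, standard error 3.36, p = 0.0413, adjusted p = 1; 1.95% of all genes were below that limit), and 0 by DESeq2.

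**Figure D3:**
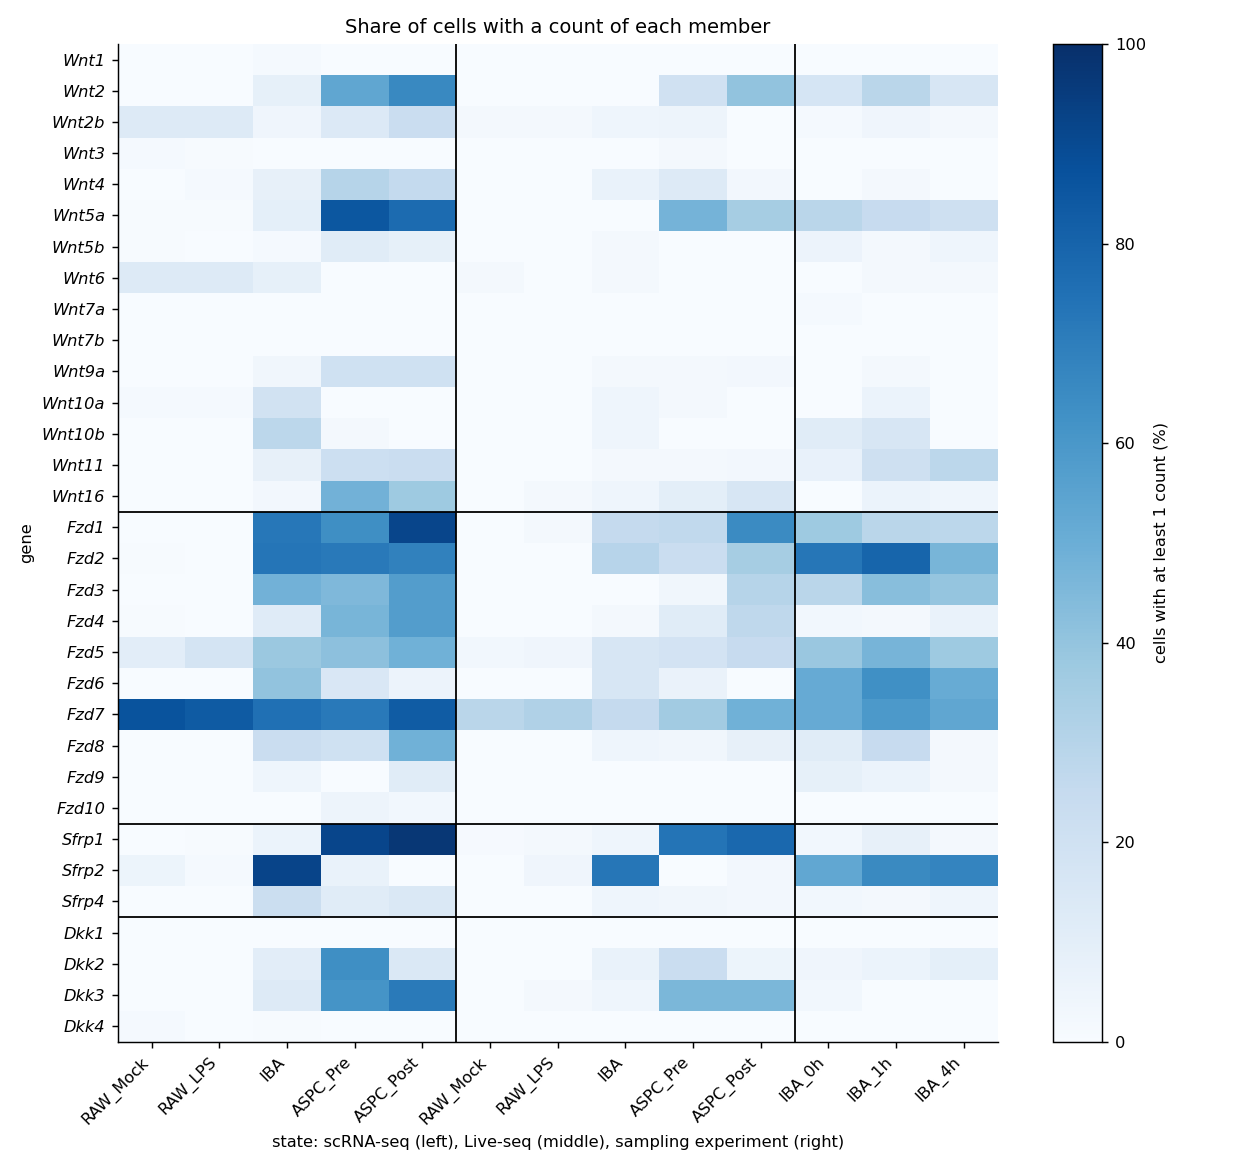
Share of cells with at least 1 count of each of the 32 genes, in percent, by state and technique. Fewer genes are detected per cell in Live-seq (a median of 4035 against 8531), and Fzd7 is the gene counted in the largest share of RAW cells in scRNA-seq.

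LPS treatment of RAW cells was the third comparison. No member was called in scRNA-seq, where 1.25% of 13404 genes were called (0.933% higher, 0.313% lower), by edgeR, DESeq2 or the edgeR 4 fit. Of 8 LPS-response marker genes all 8 were higher after LPS in both techniques (median log2 fold change 4.18 in scRNA-seq and 3.96 in Live-seq, against −0.01 and −0.41 over all genes), but the same test called 1 of them in scRNA-seq and 0 in Live-seq. At an unadjusted p below 0.05 there were 2 of the 21 members tested, Fzd7 and Fzd5, and 14.7% of all genes tested. Of these 21 members, 12 had no count in any RAW cell and could not differ. Wnt4, Wnt5a, Fzd2, Fzd4, Sfrp1 and Sfrp2 had 1 to 11 counts over all RAW cells. For all these members an absent call says nothing about LPS, and the shares of all genes are no measure for them. Fzd7 was higher after LPS in 3 of 3 batches (45.1 against 41.5, 113 against 49.2 and 68.6 against 57.1 CPM), by 0.65 on the log2 scale (standard error 0.28, adjusted p = 0.321). Fzd5 was also higher in 3 of 3 batches (1.53 against 1.28, 6.30 against 0.693 and 3.57 against 0.978 CPM), by 1.85 on the log2 scale (standard error 0.81, adjusted p = 0.332). In batch 8_8 its counts came from 2 of 15 RAW_LPS and 1 of 16 RAW_Mock cells. In Live-seq 0 of the 11 members tested were called and 0 had an unadjusted p below 0.05, where 4.7% of all genes did and 0% were called by edgeR. Of these 11 members, 5 had no count in any RAW cell. Fzd7 was at 0 to 108.1 CPM in RAW_LPS sums and 0 to 73.3 CPM in RAW_Mock sums, with most counts of the high sums from 1 cell.

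Induction of adipogenesis was the fourth comparison. ASPC_Post cells were in 1 batch per technique, so there is no test, and values are given within scRNA-seq batch 9_1 and Live-seq batch 9_4. After 2 days of the cocktail, Fzd1 and Fzd4 were higher and Dkk2 and Dkk3 were lower in both techniques. These were 4 of the 9 members that reached 10 CPM in both, by a 2-fold limit in the same direction, against 13.4% of 8454 genes. Against the ASPC_Pre sums of batch 8_8, given below, the direction was the opposite for Fzd4 and Dkk3 in both techniques and for Dkk2 in Live-seq. In scRNA-seq alone 3 members were past 2-fold higher and 2 lower (14.0% and 11.2% of all genes at 10 CPM, 25.2% in all). In Live-seq 5 were higher and 2 lower (13.5% and 17.9%, 31.4% in all). Zbtb16, a known glucocorticoid target, had 0 counts before induction and was at 24.4 CPM after it in scRNA-seq and at 23.1 CPM in Live-seq. The summed contractile genes were at 4334 CPM before and 319.9 CPM after induction in scRNA-seq and at 7382 and 539 CPM in Live-seq. The median mitochondrial share per cell went from 3.64% to 8.71% and from 3.03% to 8.20%. The part of these differences in the results was not tested.

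Among receptors, the ratio in scRNA-seq was largest for Fzd1 (ENSMUSG00000044674, chromosome 5, 4753839 to 4758035). It went from 25.2 CPM (95% counting interval 23.3 to 27.3) to 194.5 CPM (188.01 to 201.2) in scRNA-seq, a ratio of 7.71 (7.07 to 8.41). In Live-seq it went from 16.5 CPM (14.6 to 18.7) to 139 CPM (132.9 to 144.5), a ratio of 8.38 (7.38 to 9.56). The share of cells with a count went from 61.4% to 91.4% in scRNA-seq and from 34.9% to 64.9% in Live-seq, or from 43.2% to 88.6% and from 23.3% to 62.2% after thinning to 50000 counts. No single cell gave more than 26.6% of the counts in any of these sums. The level after induction was above the Fzd1 level of every other sum in either technique, RAW and IBA sums included. Per kilobase of exon, Fzd1 was the receptor with the highest level in ASPC_Post, at 46.4 CPM in scRNA-seq against 10.2 CPM for Fzd2 and 9.00 CPM for Fzd7.

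Fzd4 went from 9.08 to 22.8 CPM in scRNA-seq (ratio 2.51, 2.12 to 2.97) and from 3.14 to 10.4 CPM in Live-seq (ratio 3.32, 2.41 to 4.66). The ASPC_Pre sums of batch 8_8 were at 77.8 CPM in scRNA-seq and 81.3 CPM in Live-seq, above the levels after induction, so the spread of Fzd4 between batches was larger than this difference. With no genes left out Fzd4 was under the 10 CPM limit in Live-seq (2.18 and 7.36 CPM) and was not counted, at a ratio of 3.38. Fzd2 went from 15.7 to 37.5 CPM in scRNA-seq (ratio 2.38), where the other ASPC_Pre sum was at 41.6 CPM, and from 8.49 to 9.70 CPM in Live-seq. Fzd7 went from 25.5 to 40.8 CPM (ratio 1.60) and from 10.1 to 28.1 CPM (ratio 2.78) in Live-seq. Fzd3 was past 2-fold in Live-seq (1 count before and 175 after) and not in scRNA-seq (10.8 and 9.64 CPM), and the Live-seq ASPC_Pre sum of batch 8_8 was at 137 CPM. That sum rests on 1 cell, since the 552 counts of both Live-seq ASPC_Pre batches came from 2 cells.

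Dkk2, an antagonist at the LRP co-receptors, went from 150.4 CPM (145.6 to 155.4) to 3.08 CPM (2.31 to 4.03) in scRNA-seq and was 48.9-fold lower. In Live-seq it went from 49.7 CPM (46.3 to 53.3) to 5.07 CPM (4.02 to 6.30) and was 9.81-fold lower. The ASPC_Pre sum of batch 8_8 was at 43.8 CPM in scRNA-seq but had 0 counts in 18 cells in Live-seq, below the level after induction. Single cells weighed heavily on the first level, with 55.1% and 49.6% of the counts from 1 cell, but the share of cells with a count also went from 65.9% to 14.3% and from 32.6% to 5.41% (47.7% to 11.4% and 20.9% to 5.41% after thinning). Dkk3 went from 151.4 to 44.7 CPM (3.39-fold lower) and from 170 to 54.2 CPM (3.13-fold lower). The ASPC_Pre sums of batch 8_8 were at 5.59 CPM in scRNA-seq and 1.25 CPM in Live-seq, below the levels after induction, so that for Dkk3 the difference between batches was larger than that between states.

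Sfrp1 stayed within 2-fold, with 506 and 653 CPM in scRNA-seq and 382 and 336 CPM in Live-seq. Wnt5a was lower after induction by less than 2-fold in both, at 73.9 and 57.8 CPM and at 47.8 and 25.6 CPM. Wnt2 went from 23.3 to 35.2 CPM in scRNA-seq and from 13.8 to 30.6 CPM in Live-seq, and passed 2-fold in Live-seq alone. Wnt16 was at 16.4 and 12.7 CPM in scRNA-seq.

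**Figure D4:**
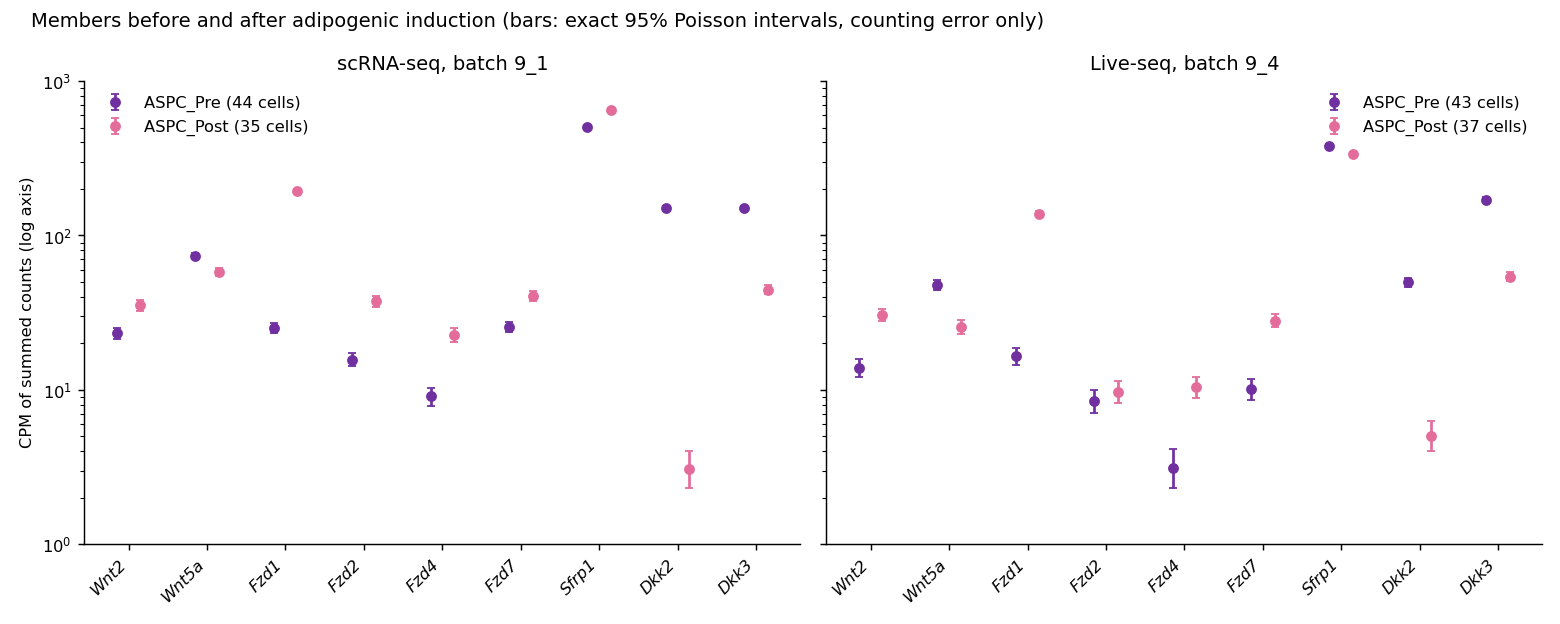
Levels in ASPC_Pre and ASPC_Post in scRNA-seq batch 9_1 and Live-seq batch 9_4, in CPM on a log axis, with exact Poisson intervals at 95% that cover counting error only. Fzd1 lies 7.71-fold and 8.38-fold higher after induction, and Dkk2 and Dkk3 lie lower.

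A few ASPCs were sampled by Live-seq before and again after induction, which follows the same cell. Pairs are as the labels join them; the study's text counts fewer, and which pairs it counts is not given in the sources used here. Among 9 labelled pairs, Sfrp1 was counted before induction in 9 and was lower after it in 7, with a median of 1225 CPM before and 334 CPM after. The paired cells were high before induction: the other 34 ASPC_Pre cells of batch 9_4 had a median of 131.04 CPM and 7 of the 9 paired cells lay above all of them, whereas the sums of the whole batch stayed within 2-fold. Wnt5a was counted in 7 pairs and was lower after induction in all 7, with 2 cells still above 0. Some of these pairs rest on few counts, with 3, 5 and 7 before induction. In another pair 42 counts before and 43 after it gave 151.3 and 78.3 CPM. Fzd1 was higher after induction in 3 pairs, from 0 to 208, 93.8 and 207 CPM, and lower in 3, in which it had 1, 2 and 5 counts before. Dkk2 was counted before induction in 3 cells and after it in 0. Dkk3 was counted in 7 pairs, lower after induction in 5 and higher in 2 (from 0 to 98.3 and 26.4 CPM), and Fzd4 was higher in 1 pair and lower in 1. Among 4 pairs of RAW cells, Fzd7 was the member counted, in 2 pairs, with 3 counts before LPS and 9 after it in 1 and with 5 and 0 in the other, where both libraries carry order 1 in the labels. A gene missing from the second sample of a cell may have been missed, since 1 sample holds part of a cell's RNA.

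The fifth comparison followed IBA cells after cytoplasm had been withdrawn. All these cells were in batch 8_1, so there is no test. Of the members at 10 CPM or more, 1 was past 2-fold higher at 1 h against 0 h (2.29% of 8805 genes were) and 0 were lower (4.33%, with 6.62% in either direction). At 4 h 1 was higher and 2 were lower (2.63% and 5.74% of 8814 genes, 8.37% in all). In each comparison 25 of the 32 members were under 10 CPM, and 6 stayed within 2-fold at 1 h and 4 at 4 h. The largest difference was a lower level of Fzd2 in cells lysed at 4 h.

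Fzd2 was at 52.5 CPM (49.6 to 55.4) at 0 h, 29.5 CPM (27.3 to 31.9) at 1 h and 9.05 CPM (7.63 to 10.7) at 4 h, 5.79-fold lower at 4 h than at 0 h. It was counted in 51 of 70, 39 of 49 and 20 of 43 cells (67.6%, 55.1% and 23.3% of cells after thinning to 50000 counts), and the 1 cell with most counts gave 6.56%, 10.3% and 17.4%. The IBA sums of the other scRNA-seq batches were at 24.8 to 31.1 CPM, so that the 0 h cells lay above and the 4 h cells below them. Fzd1 went from 10.8 to 6.18 and 4.28 CPM (2.53-fold lower at 4 h), all below the IBA sums of the other batches (17.7 to 108.3 CPM). It was close to the 10 CPM limit and fell under it with cells averaged (2.33-fold lower at 4 h), thinned (1.62-fold) or with no genes left out (2.57-fold), and was then not counted. Fzd7 was at 16.9, 9.09 and 9.62 CPM. The median mitochondrial share of counts per cell was 4.52% at 0 h, 8.74% at 1 h and 9.01% at 4 h, and summed contractile genes were at 834, 2826 and 1177 CPM. Their part in these values was not tested.

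Wnt2 went the other way, from 5.78 to 9.32 and 14.6 CPM (ratio 2.52 at 4 h, 2.04 to 3.13), with counts in 12 of 70, 14 of 49 and 7 of 43 cells, so that the share of cells was no higher at 4 h than at 0 h. Fzd3 was at 7.83, 16.01 and 9.12 CPM and was past 2-fold at 1 h (ratio 2.04, 1.71 to 2.45). Fzd6 was at 18.0, 10.47 and 25.7 CPM. Sfrp2 was at 47.1, 40.5 and 33.8 CPM and Wnt5a at 22.3, 22.7 and 13.01 CPM, both within 2-fold.

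The cells of batch 8_1 differed from other IBA cells already at 0 h. Sfrp2 was at 47.1 CPM against 149 to 1312 CPM in the other scRNA-seq batches, and Wnt5a at 22.3 CPM against 1.37 to 3.32 CPM. Wnt2 was at 5.78 CPM against 0 to 2.02 CPM. Their 10 mesenchymal markers summed to 2614 to 2879 CPM, against 5068 to 14149.7 CPM in the other IBA sums of whole cells. At 0 h batch and handling before lysis cannot be told apart in these values.

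**Figure D5:**
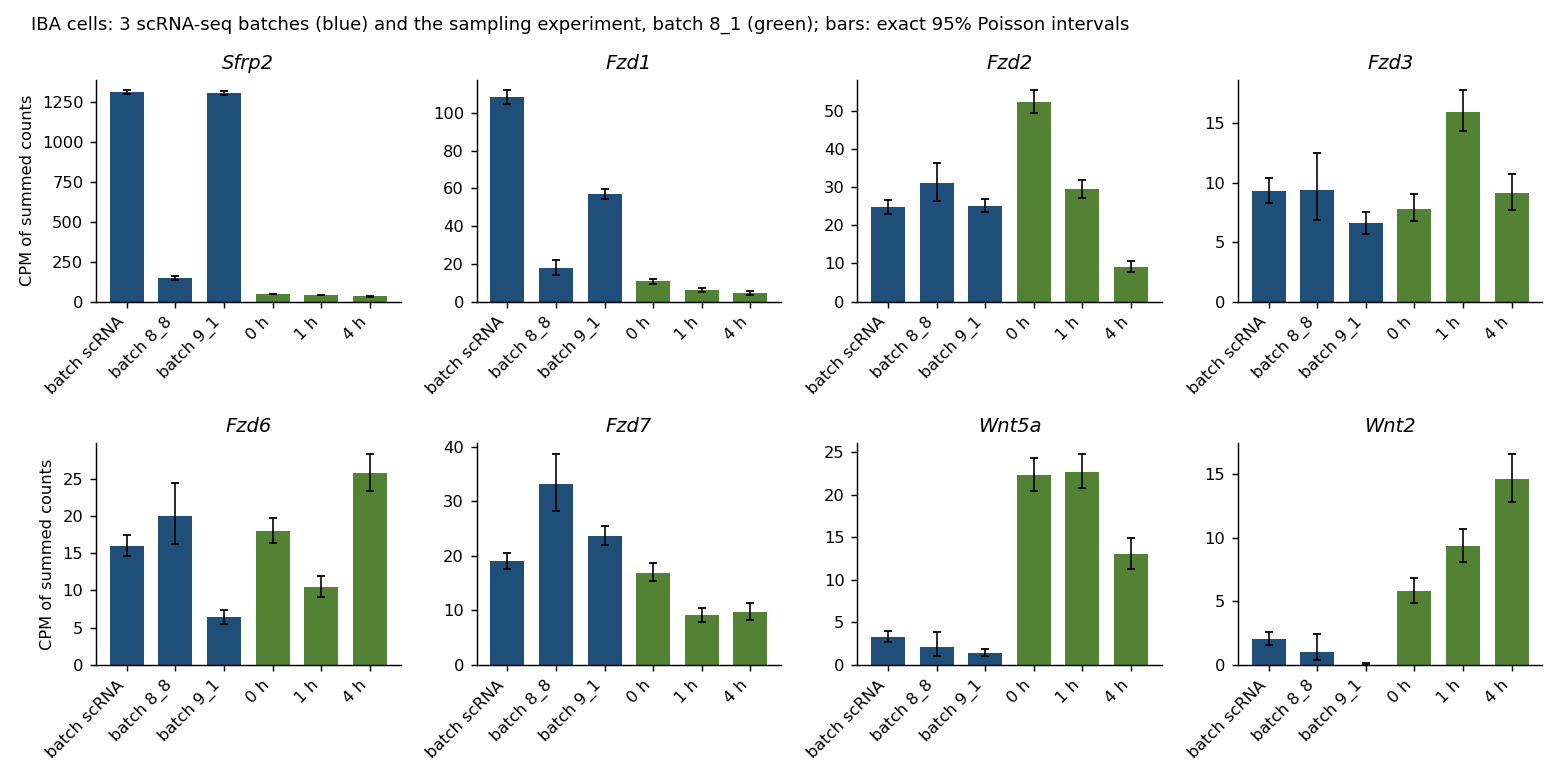
Levels in IBA cells, in CPM, in the 3 scRNA-seq batches and at 0, 1 and 4 h in batch 8_1, with exact Poisson intervals at 95%. Fzd2 is lower at 1 h and at 4 h than at 0 h (52.5, 29.5 and 9.05 CPM), and Sfrp2 of batch 8_1 lies below every other batch.

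Other genes of the pathway were followed as a list of 49, covering secretion, co-receptors, the R-spondin axis, further secreted inhibitors, Kremen genes, cytoplasmic and nuclear components and feedback targets. In scRNA-seq 34 were tested, of which 22 were called as higher and 1 (Lrp5, log2 fold change −1.41) as lower in mesenchymal cells than in RAW cells (67.6% in all, against 41.5% of all tested genes, of which 27.4% were higher and 14.1% lower). A gene could pass the filter through the cells in which it was high, and the shares are given as a description. Wls, which carries WNT proteins to the cell surface, was present in all states, at 448 ± 151.2 CPM in IBA (SD, n = 3), 328 ± 84.2 CPM in ASPC_Pre (SD, n = 2), 158 ± 30.5 CPM in RAW_Mock (SD, n = 3) and 124 ± 4.57 CPM in RAW_LPS (SD, n = 3). It was called as higher in mesenchymal cells (log2 fold change 1.64). After LPS 0 of the 34 were called.

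Between IBA and ASPC_Pre, 1 of these 34 genes was called as higher in IBA and 3 as lower, 11.8% against 11.4% of all tested genes (3.77% higher and 7.61% lower), a share near the background. Znrf3, a ubiquitin ligase that removes Frizzled receptors from the membrane, was at 35.1 ± 19.9 CPM in IBA (SD, n = 3) and 4.78 ± 0.914 CPM in ASPC_Pre (SD, n = 2), with a log2 fold change of 2.38 (adjusted p = 0.0323). Nkd2, an inhibitor at the level of Dishevelled, was at 1.16 ± 0.661 CPM in IBA and 48.1 ± 47.0 CPM in ASPC_Pre (log2 fold change −5.01, adjusted p = 0.0431). Its relative Nkd1 (adjusted p = 0.0467) and Igfbp4, a binding protein with WNT-inhibiting activity (log2 fold change −3.07, adjusted p = 0.0309), were also lower in IBA. Axin2, the usual feedback readout of β-catenin signalling, was at no more than 1.89 CPM in any scRNA-seq sum of the 5 states.

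During induction, 4 of the 49 genes were past 2-fold higher and 5 lower in scRNA-seq, and 3 were higher and 5 lower in Live-seq. These were 9 of the 26 that reached 10 CPM in scRNA-seq (34.6%, against 25.2% of all such genes) and 8 of the 20 in Live-seq (40.0%, against 31.4%). Ccn4, a WNT-inducible secreted protein, went from 134 to 14.3 CPM in scRNA-seq and from 144.7 to 6.26 CPM in Live-seq. Nkd2 went from 81.3 to 8.65 CPM and from 72.8 to 10.1 CPM, and Frzb, a further soluble relative of Frizzled receptors, from 16.5 to 5.23 CPM and from 41.4 to 8.82 CPM. Lrp6, the co-receptor, was higher in both, going from 35.6 to 130.1 CPM and from 10.2 to 27.9 CPM. In the ASPC_Pre sums of batch 8_8, Ccn4 was at 147.8 CPM in scRNA-seq and 195.5 CPM in Live-seq and Lrp6 at 44.7 and 9.23 CPM, near those of the other batch. Nkd2 was at 14.8 and 0 CPM and Frzb at 0.729 and 0 CPM there, below the levels after induction except for Nkd2 in scRNA-seq. These are single batches without a test.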

How the data were processed

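The authors mapped 75-bp reads to GRCm38 (mm10) using STAR 2.6.1c. HTSeq then gave the unique reads of every gene of Ensembl 87, strand not considered; the submitters' notes also name bcl2fastq 2.19.1. The deposited values are raw counts. By the study's minimum of over 1000 genes, 294 of the 296 Live-seq cells in the table would be left; the 2 with fewer were kept here. From these counts, CPM were computed after 20 negative-control and 90 ribosomal protein genes had been left out, as in the study. Gene models (coordinates, exonic bases, overlaps) were from GENCODE vM21, in which 30322 features were found by identifier.

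A gene was tested if 15% or more of the cells in any scRNA-seq state had 2 or more of its reads and if it passed filterByExpr (minimum count 2, minimum proportion 0.05). Sums were tested in R 4.3.3 with edgeR 4.0.16 (glmQLFit, glmQLFTest, TMM, state and batch in the model, Benjamini-Hochberg over all genes tested), and DESeq2 1.42.0 was an alternative. Batch pairs the sums because the labels give it: after group means were removed, sums of a batch correlated across genes by 0.177 to 0.431 in scRNA-seq and by −0.0171 to 0.223 in Live-seq. The code was tested on simulated data for IBA against ASPC_Pre, where it called most changed genes in scRNA-seq but no changed gene in Live-seq. Other values came from Python 3.11.15 with numpy 2.4.6, pandas 2.3.3 and scipy 1.17.1, and figures from matplotlib 3.10.9. Cells were sorted or picked singly, and no doublet caller was run. Members were named with values at 10 CPM or more in a sum of at least 10 cells, or when called. The members and the lists of pathway and marker genes were chosen with earlier results of these data known.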

Additional observations from a re-analysis of the deposited data

Results flagged for a closer look

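Groups of 4 or more sums in which a member reached 10 CPM were examined for a value far from the others, which gave 3 combinations of a member and a state, and Fzd5 stood out in 1. In the 5 RAW_LPS sums of Live-seq, the highest was 14.7 CPM (batch 8_8) and the next 1.54 CPM. A group could enter this check through its outlying value alone, as this 1 did, so no rate for chance is given. All counts of the high sum came from 1 of its 9 cells, so the value rests on a single library.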

How the results depend on the processing

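Of the values that 45 fold changes of members, called or named with a test, took under the alternatives, 495 kept direction and side of the threshold, 32 lost a call, 15 gained one and 8 changed sign. Over all tested members 74 of 1361 values changed sign, 0 of them of a called member. The 8 were of members not called. Between IBA and ASPC_Pre in scRNA-seq, Fzd1 (log2 fold change −0.18) was at 0.28 by DESeq2, 0.79 without the block that pairs the sums and 0.36 with thinned cells, and with a batch left out Fzd1 ranged from −1.25 to 0.87, Fzd2 from −0.70 to 0.29, Fzd3 from −1.01 to 0.46 and Dkk3 from −4.19 to 0.12. Fzd7 in Live-seq mesenchymal cells against RAW cells ranged from −1.77 to 0.64. Between IBA and ASPC_Pre in scRNA-seq 6 members were called, against 3 by DESeq2 and 0 to 6 with a batch left out (3 without scRNA, 0 without 9_1, and 6 without 8_8, namely Wnt5a, Sfrp1, Sfrp2, Dkk2, Wnt2 and Dkk3). Without 9_1 or 8_8 ASPC_Pre was 1 sum, assumed to vary like the other groups. Mesenchymal cells against RAW cells gave 20 calls in scRNA-seq and 16 to 19 with a batch left out. In Live-seq it gave 2 calls, 4 with the edgeR 4 fit, 1 (Dkk3) with at least 10 cells per sum and 0 to 2 with a batch left out. Live-seq IBA against ASPC_Pre gave 0 calls and 1 (Sfrp2) without the filter on low counts or with cells thinned to 50000 counts, and 0 with any batch left out. Induction gave 4 members past 2-fold in both techniques, and 3 with no genes left out, where Fzd4 was under 10 CPM in Live-seq. Sampling gave 4 members past 2-fold at either time, and 3 with no genes left out, where Fzd1 was under 10 CPM, as it was with cells averaged or thinned. The causes of the other differences were not tested.

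Without batch as the block that pairs the sums, calls of members numbered 19 and 6 in scRNA-seq and 6 and 1 in Live-seq for the same 2 comparisons. They stayed at 0 for LPS in both techniques and for the interaction.

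Over all genes, the count for IBA against ASPC_Pre in scRNA-seq was 1525, against 2537 with the edgeR 4 fit, 908 without the block, 443 without batch scRNA and 51 without batch 9_1. For Live-seq mesenchymal cells it was 935, against 2241 by DESeq2, 2101 with the edgeR 4 fit and 1774 without the block. For LPS in scRNA-seq it was 125 higher and 42 lower, against 711 by DESeq2, 429 with the edgeR 4 fit and 35 without the block. Leaving out the cell that went against its label was chosen after seeing the data and gave the same counts of members. The dispersion was 1.44 between Live-seq sums and 0.184 between scRNA-seq sums.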
